A study of Mus musculus with 18 samples.

Results

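The 10 genes described here, Apoa1, Apoa4, Apoa5, Apob, Apoc2, Apoc3, Apoe, Apom, Mttp and Scarb1, code for apolipoproteins, for the protein that loads lipid onto apolipoprotein B and for the main liver receptor of high-density lipoprotein (HDL). They were chosen by name: every probe set of the array whose only gene symbol was one of the 10 was taken, which gave 19 probe sets for 10 of the 18193 genes with such a probe set. All 19 probe sets passed the filter on low signal, so all 10 genes were among the 13228 tested. Where a gene had several probe sets, the one with the highest mean over all arrays stands for the gene and is called its main probe set, and the others are given beside it.

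RNA was measured in liver of wild-type CD1 mice, an outbred stock, on 18 Affymetrix arrays, 3 in each of 6 groups, to ask what the compound CMPF does to the liver before or after a high-fat diet (HFD). CMPF is a furan fatty acid metabolite found in human plasma, where it rises with fish oil intake. In the prevention model the groups were CMPF followed by HFD, vehicle followed by HFD, and chow. CMPF was given at 6 mg/kg/day for 1 week and the HFD, with 60% of its energy from fat, for 4 weeks per the sample labels (4 to 5 weeks per the series text). In the reversal model the groups were HFD with CMPF, HFD with vehicle, and chow, with 6 weeks of HFD before 2 weeks of injections of vehicle or of CMPF at the same dose. The HFD groups without CMPF are called HFD below, and the labels name both chow groups as controls without saying what they were injected with. Age and sex are not in the labels, nor is it said that each array is a separate animal, so the p-values measure the spread between arrays, which may be technical.

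Lipoproteins carry triglyceride and cholesterol through the blood in particles wrapped in phospholipid and apolipoproteins. The liver builds very-low-density lipoprotein (VLDL) on 1 molecule of apolipoprotein B, which the microsomal triglyceride transfer protein, the product of Mttp, loads with triglyceride and cholesteryl ester inside the endoplasmic reticulum. In the circulation, apolipoproteins C-II and A-V favour and apolipoprotein C-III hinders the removal of triglyceride by lipoprotein lipase, and apolipoprotein E leads the remnants back to liver receptors. HDL is built on apolipoprotein A-I, also carries apolipoprotein M, and hands its cholesteryl ester to the liver through scavenger receptor class B type 1, the product of Scarb1. Apoa1, Apoc3, Apoa4 and Apoa5 are neighbours on mouse chromosome 9, and Apoc2 and Apoe lie near each other on chromosome 7, in the RefSeq table of assembly GRCm38.p6.

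Some properties of the arrays bear on every value below. CMPF arrays 2 and 3 of the prevention model were nearly identical, with 0 genes more than 2-fold apart (115 or more in the 152 remaining array pairs), so they were averaged and counted as 1 sample, which left n = 2 in that group and 17 samples in all. The array means lay at 5.08 to 5.10 in the prevention model and at 5.25 to 5.26 in the reversal model, so levels were compared only within a model. Chow array 2 of the reversal model stood apart, with a median correlation of 0.948 with the other arrays of its model against 0.975 to 0.986 for the rest. The 3' to 5' index, the log2 signal of the 3' minus the 5' control probe sets for Gapdh and beta-actin, which is larger where RNA is more degraded or copied less fully, was 2.66, 2.67 and 3.19 in prevention HFD livers and 1.33, 1.98 and 0.97 in prevention chow livers, with no overlap.

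Of hepatocyte markers, 7 of 9 had a probe set above the filter, and their summed linear signal ranged from 65016 to 69701 in prevention HFD livers and from 71797 to 74411 in prevention chow livers. The ratio of the means was 0.921, with an exact permutation p of 0.1, two-sided, the smallest that 3 arrays against 3 allow. The summed signal of neutrophil markers (4 of 4 above the filter) was 135 to 284 in prevention HFD livers and 95 to 131 in chow livers, a ratio of 1.79. That of adipocyte markers (2 of 6) was 64 to 84 in HFD and 59 to 63 in chow livers, a ratio of 1.22. Both were without overlap and had the same exact p. Adipoq, Plin1, Lep and Cfd had no probe set above the filter, so the adipocyte sum is that of Retn and Cidec. Cidec was dim, at a log2 mean of 4.94 in prevention HFD and 4.73 in chow livers. The part of these markers in the results below was not tested. In whole liver, fewer cells of a type and less RNA per cell cannot be told apart.

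Mttp was lower in HFD than in chow livers of the prevention model, and the other 9 genes fell short of the test. In that comparison 1 of the 10 genes passed an adjusted p of 0.05, against 5.57% of all 13228 genes tested in either direction and 3.83% lower, so the count is near the background. The 3' to 5' index did not overlap between these groups, and with it as a covariate Mttp did not pass (limma, adjusted p 0.0573). In the reversal model 0 of 10 passed between HFD and chow, where 2.45% of all genes did, and 2 of the 10 had an unadjusted p under 0.05, as did 22.4% of all genes. CMPF against vehicle on HFD gave 0 of 10 in the prevention model, where 0% of all genes passed, and 0 of 10 in the reversal model, where 0.0378% did. At an unadjusted p under 0.05, CMPF against vehicle gave 1 of the 10 genes in the prevention model, against 8.01% of all genes, and 2 of 10 in the reversal model, against 4.79%. CMPF with HFD against chow gave 0 of 10 in both models, against 0% of all genes in the prevention model and 2% in the reversal model. At an unadjusted p under 0.05 that comparison gave 0 of 10 in the prevention model, against 9.99% of all genes, and 3 of 10 in the reversal model, against 18%. The median log2 difference of the 10 genes was -0.09 for HFD minus chow in the prevention model and 0.06 in the reversal model, and 0.00 and 0.03 over all genes. For CMPF minus vehicle it was 0.00 in the prevention model and -0.03 in the reversal model, and 0.02 and -0.01 over all genes.

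**Figure D1:**
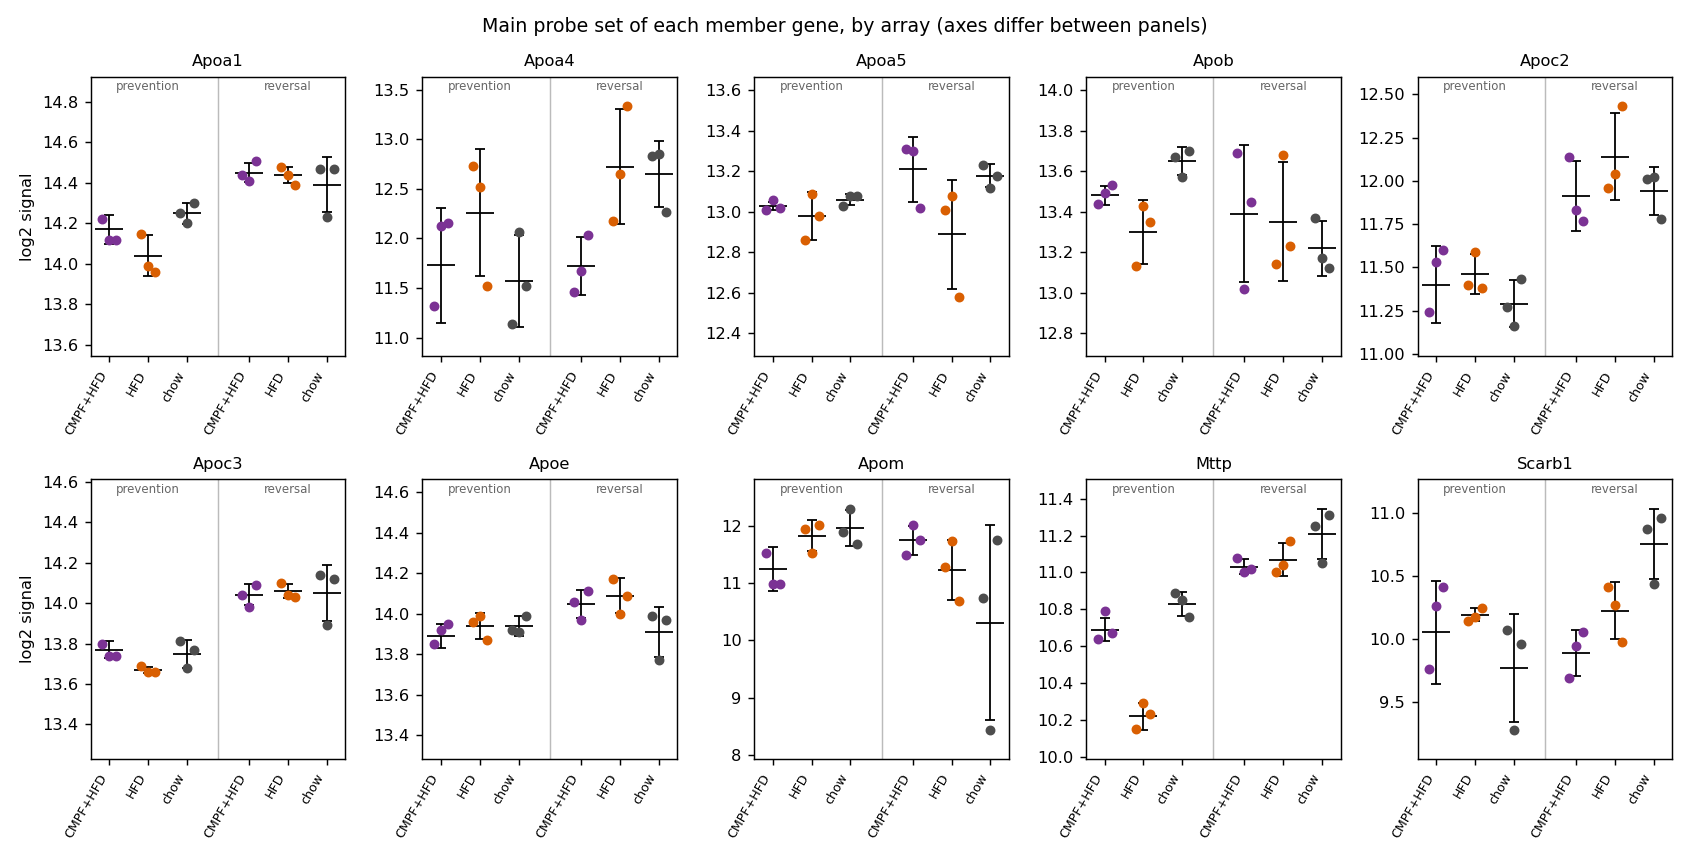
Log2 signal of the main probe set of each of the 10 genes on each of the 18 arrays (points), with the group mean and SD (black lines, arrays 2 and 3 of the prevention CMPF group averaged). The 3 prevention HFD arrays of Mttp, at 10.15 to 10.29, lie below all other arrays of that model. Those of Apob, at 13.13 to 13.43, do so by a small margin. The axes differ between panels.

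Mttp, on chromosome 3, is the assembly gene of the set. In the prevention model its log2 signal was 10.64, 10.79 and 10.67 in livers given CMPF before HFD, 10.15, 10.29 and 10.23 in HFD livers, and 10.89, 10.85 and 10.76 in chow livers. All 3 HFD arrays were below every other array of the model, and the CMPF arrays lay between the HFD and the chow arrays, with array 2 of the CMPF group above chow array 3 until it was averaged with array 3. Among all genes, 17.2% had HFD arrays entirely below the chow arrays. The HFD livers averaged 10.22 ± 0.0731 and the chow livers 10.83 ± 0.065 (SD, n = 3 each), a log2 difference of -0.61 ± 0.093 (SE), or 0.655 times the chow level, with an adjusted p of 0.0105 in limma. The second Mttp probe set, 1419399_at, fell by 0.87 ± 0.195 on the log2 scale in the same comparison, with an adjusted p of 0.0243 over all 22640 probe sets.

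CMPF before HFD left Mttp at 10.69 ± 0.0632 (SD, n = 2), against 10.22 ± 0.0731 in HFD livers (n = 3). The log2 difference was 0.46 ± 0.104 (SE), or 1.38-fold, with an unadjusted p of 0.000559 and an adjusted p of 0.252 in limma, so it did not pass the test; 19.7% of all genes had CMPF samples that all lay above the HFD samples. With all 18 arrays counted as separate samples it passed, at 0.48 with an adjusted p of 0.0445. At the second probe set the CMPF and HFD arrays overlapped, at 9.42, 9.62 and 9.50 in CMPF livers and 8.83, 9.37 and 9.62 in HFD livers, a log2 difference of 0.21 ± 0.218 (adjusted p 0.876). Against chow, the CMPF livers differed by -0.15 (95% interval -0.37 to 0.07) at the main probe set and by -0.66 ± 0.218 at the second, and neither passed.

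Mttp in the reversal model read 11.08, 11.00 and 11.02 in CMPF livers, 11.00, 11.04 and 11.17 in HFD livers, and 11.25, 11.05 and 11.31 in chow livers. The 3 groups overlapped. HFD minus chow was -0.14 ± 0.093 (adjusted p 0.389) and CMPF minus vehicle was -0.04, with a 95% interval from -0.24 to 0.16. The difference between models did not pass: the CMPF effect of the reversal model minus that of the prevention model was -0.50 ± 0.139, with an unadjusted p of 0.00302 and an adjusted p of 0.484. In that comparison 0 of all genes passed.

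The HFD effect on Mttp was 0.47 ± 0.131 higher (less negative) in the reversal model than in the prevention model, with an adjusted p of 0.0378, the only one of the 10 genes past the test for that difference, where 11% of all genes passed. Of those genes 80.5% had the higher effect in the reversal model, and that share was 56% after quantile normalisation over all arrays and 62.8% after cyclic loess. After quantile normalisation the Mttp effects were -0.47 in the prevention model and -0.34 in the reversal model, and their difference was 0.14 with an adjusted p of 0.527; after cyclic loess it was 0.16 with an adjusted p of 0.422.

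The prevention call for Mttp lost the test, by a small margin, with some arrays left out: its difference was -0.58 (adjusted p 0.0627) without chow array 1, -0.65 (0.0519) without chow array 3 and -0.57 (0.0508) without HFD array 1. With the 3' to 5' index as a covariate it was -0.63 (adjusted p 0.0573). The index did not overlap between prevention HFD and chow livers, so in that fit index and diet cannot be told apart. The call of the second Mttp probe set was lost more often: without chow array 1 (-0.85, adjusted p 0.109), chow array 3 (-0.91, 0.0944), HFD array 1 (-0.65, 0.0823) or HFD array 2 (-0.92, 0.0544), with the index as a covariate (-0.91, 0.164) and with only the HFD and chow arrays in the fit (-0.87, 0.058).

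**Figure D2:**
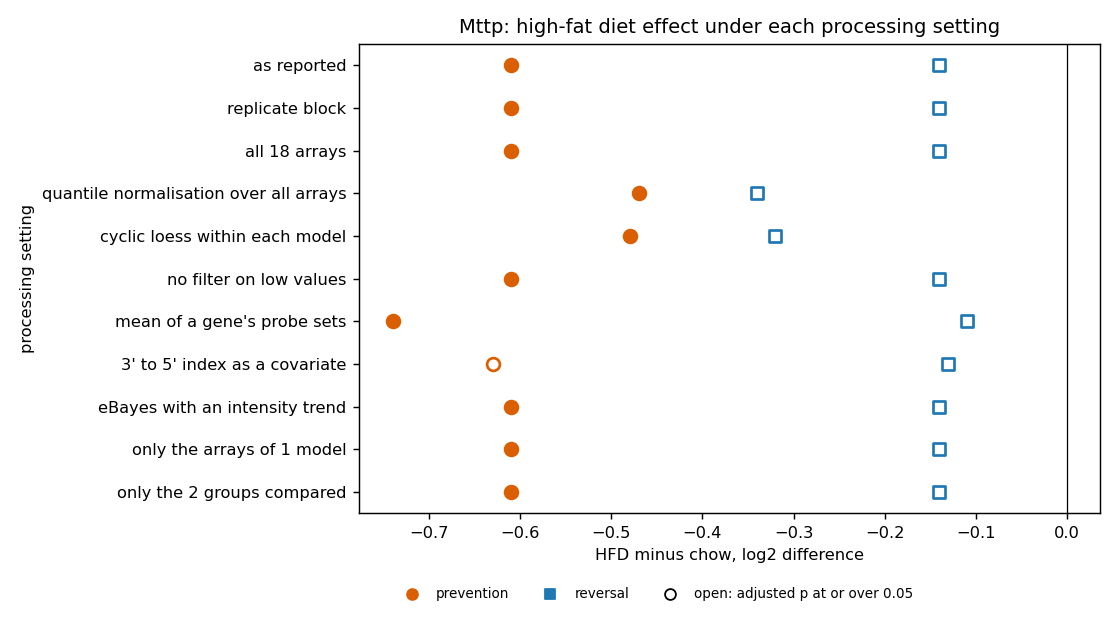
HFD minus chow log2 difference of Mttp under each processing setting other than leaving out an array, with circles for the prevention and squares for the reversal model, filled where the adjusted p was under 0.05. The prevention values lie between -0.74 and -0.47 and the reversal values between -0.34 and -0.11.

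The DNA before the start of Mttp, of Apom and of Apoa4 is given because these 3 genes had the probe sets that passed the test or the largest CMPF difference. The sequences are RefSeq's (GRCm38.p6), the 250 bases before the gene start, 5' to 3' on the gene's strand, with matches to the motifs searched in capitals.
Mttp, chr3:138143419-138143668, minus strand: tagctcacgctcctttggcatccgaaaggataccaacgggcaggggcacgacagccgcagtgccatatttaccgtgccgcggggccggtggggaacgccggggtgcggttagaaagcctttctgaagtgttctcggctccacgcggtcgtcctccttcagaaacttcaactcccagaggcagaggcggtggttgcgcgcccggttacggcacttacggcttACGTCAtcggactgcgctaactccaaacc
Apom, chr17:35131802-35132051, minus strand: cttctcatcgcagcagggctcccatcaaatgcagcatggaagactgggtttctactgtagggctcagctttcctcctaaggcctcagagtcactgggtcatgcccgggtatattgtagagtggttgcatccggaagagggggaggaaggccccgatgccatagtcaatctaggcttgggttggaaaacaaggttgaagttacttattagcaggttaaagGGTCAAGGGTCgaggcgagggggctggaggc
Apoa4, chr9:46240594-46240843, plus strand: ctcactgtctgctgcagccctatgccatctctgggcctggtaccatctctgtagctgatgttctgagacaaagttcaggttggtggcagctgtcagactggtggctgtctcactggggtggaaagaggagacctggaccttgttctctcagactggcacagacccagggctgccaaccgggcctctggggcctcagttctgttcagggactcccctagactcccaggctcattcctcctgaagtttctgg

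The motifs searched, on both strands, were a nuclear receptor half-site (AGGTCA), a direct repeat of such sites with 1 base between (GGTCA and GGTC on either side of any 2 bases), an E-box (CACGTG), a cAMP response half-site (TGACGT), a sterol regulatory element (TCACNCCAC) and an HNF1 site (GTTAAT and ATTAA on either side of any 1 base). Of the 10 genes, 8 matched an entry of the promoter table. The Mttp window held the cAMP response half-site on its other strand, 29 to 24 bases before the start, a match that 6.47% of all 32851 windows of that length had. The Apom window held the direct repeat 31 to 21 bases before the start, which 0.301% of windows had, and the Apoa4 window held none of the 6. Among the other members, the Apoc2 window held the nuclear receptor half-site (14% of windows) and the Apoa5 window held the E-box (6.02%). These matches describe letters and were not tested as binding sites.

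Apob codes for the structural protein of VLDL and low-density lipoprotein. Its main probe set read 13.44, 13.49 and 13.53 in prevention CMPF livers, 13.13, 13.43 and 13.35 in HFD livers, and 13.67, 13.57 and 13.70 in chow livers. The HFD arrays were all below the chow arrays, as in 17.2% of all genes. The CMPF arrays lay between them without overlap, and 19.7% of all genes had CMPF samples entirely above the HFD samples. HFD minus chow was -0.35 ± 0.169 (adjusted p 0.222) and CMPF minus vehicle was 0.17 (95% interval -0.23 to 0.58), so neither passed. The reversal groups overlapped, at 13.02 to 13.69 in CMPF livers, 13.14 to 13.68 in HFD livers and 13.12 to 13.37 in chow livers. The second Apob probe set, 1457554_at, was far dimmer, with a mean of 7.8 over all arrays against 13.4 at the main one. In the prevention model it read 7.14 to 7.31 in CMPF livers, 6.53 to 7.21 in HFD livers and 6.26 to 7.04 in chow livers. It did not follow the main probe set across samples (Pearson's r = 0.04, Spearman's rho = -0.03 over 17 samples, model means removed), and no comparison passed at either.

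Apoa1, which codes for the main HDL protein, varied little between arrays. Its main probe set read 14.22, 14.12 and 14.12 in prevention CMPF livers, 14.15, 13.99 and 13.96 in HFD livers, and 14.25, 14.20 and 14.30 in chow livers. Every HFD array was below every chow array, as in 17.2% of all genes, but the difference of -0.21 ± 0.0919 had an adjusted p of 0.169 and was -0.04 after cyclic loess within each model. The reversal values were 14.41 to 14.51 in CMPF livers, 14.39 to 14.48 in HFD livers and 14.23 to 14.47 in chow livers, and the groups overlapped. The 4 Apoa1 probe sets moved together (Pearson's r from 0.95 to 0.98 over 17 samples, with model means removed). These signals were close to the highest value on any array, 14.87.

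Apom codes for the apolipoprotein that carries sphingosine-1-phosphate on HDL, and its 2 probe sets gave different answers. At the second, 1419096_at, the log2 signal was 10.28, 10.06 and 9.91 in prevention CMPF livers, 10.54, 10.21 and 10.19 in HFD livers, and 11.55, 11.20 and 11.40 in chow livers. Both HFD groups were below all 3 chow arrays, and they overlapped each other. Among all genes, by main probe set, 17.2% had vehicle HFD arrays entirely below the chow arrays. HFD minus chow was -1.07 ± 0.226 with an adjusted p of 0.0212 over all probe sets, of which 6.86% passed in that comparison. CMPF with HFD minus chow was -1.25 ± 0.252 (adjusted p 0.201), which passed with all 18 arrays counted (-1.30, adjusted p 0.0368), and CMPF minus vehicle was -0.19 ± 0.252.

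On reversal HFD the second Apom probe set did not show the lower signal on HFD. It read 10.81, 10.86 and 11.09 in CMPF livers, 10.72, 10.67 and 9.88 in HFD livers, and 10.06, 9.73 and 10.48 in chow livers. The CMPF arrays differed from chow by 0.83 ± 0.226 (adjusted p 0.0909) and from vehicle by 0.49 ± 0.226, and neither difference passed. HFD minus chow was 0.33 ± 0.226 (adjusted p 0.394), and the HFD effect was higher in the reversal than in the prevention model by 1.40 ± 0.319 (adjusted p 0.0237; 12.9% of probe sets passed). That difference was 1.03 (adjusted p 0.0373) after quantile normalisation and 1.1 (0.0348) after cyclic loess. It did not pass with the 3' to 5' index as a covariate (1.2, adjusted p 0.256), or without prevention chow array 1 (1.32, 0.0696), chow array 3 (1.39, 0.0632) or HFD array 3 (1.34, 0.055), or reversal HFD array 1 (1.25, 0.0662). The prevention call for this probe set was lost without any one of 5 of its 6 HFD and chow arrays: chow array 1 (-0.98, adjusted p 0.106), chow array 3 (-1.06, 0.0944), HFD array 1 (-1.18, 0.0586), HFD array 2 (-1.02, 0.0596) and HFD array 3 (-1.0, 0.062). With the index as a covariate it was -0.92 (adjusted p 0.206).

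The main Apom probe set, 1419095_a_at, spread far more between arrays, with a within-group SD of 0.795 against 0.296 at the second. In the prevention model it read 11.52, 10.98 and 10.98 in CMPF livers, 11.94, 11.52 and 12.02 in HFD livers, and 11.90, 12.30 and 11.68 in chow livers, so HFD and chow overlapped at a difference of -0.13 ± 0.579. The reversal values were 11.50, 12.01 and 11.76 in CMPF livers, 11.28, 11.73 and 10.69 in HFD livers, and 10.74, 8.44 and 11.76 in chow livers. The chow array at 8.44 is the one that stood apart from its model. CMPF with HFD minus chow was 1.44 ± 0.579 (adjusted p 0.206), 0.51 without that array and 2.17 (adjusted p 0.0482) without chow array 3. Over the 17 samples the Apom probe sets followed each other at a Pearson's r of 0.63 and a Spearman's rho of 0.63, with model means removed.

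**Figure D3:**
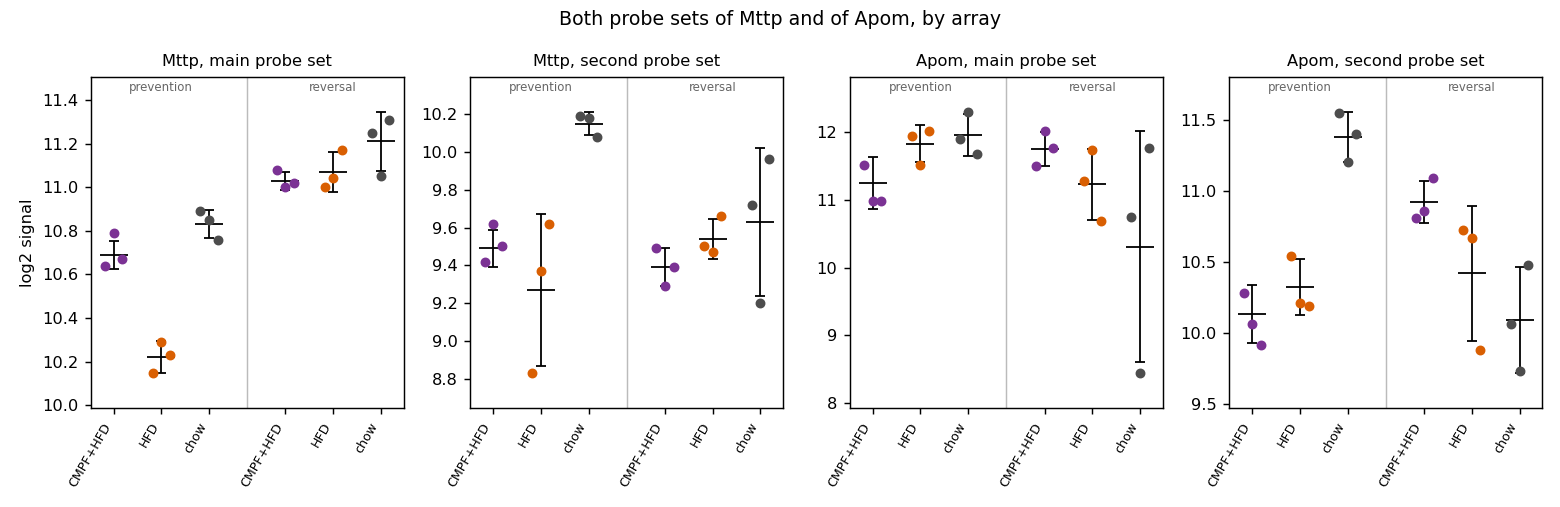
Log2 signal of both Mttp and both Apom probe sets on each array (points), with group means and SD. At both Mttp probe sets and the second Apom probe set the prevention HFD arrays lie below the chow arrays without overlap; the main Apom probe set has 1 reversal chow array at 8.44.

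Scarb1 codes for the HDL receptor of hepatocytes and its HFD minus chow difference was below 0 in the reversal and above 0 in the prevention model, without passing the test in either. Its main probe set, 1455820_x_at, read 9.69, 9.94 and 10.05 in reversal CMPF livers, 10.41, 10.27 and 9.97 in HFD livers, and 10.87, 10.43 and 10.96 in chow livers. All 6 arrays on HFD were below all 3 chow arrays, and CMPF and HFD overlapped. Among all genes, 7.67% had CMPF arrays, and 8.59% HFD arrays, entirely below the chow arrays. CMPF with HFD minus chow was -0.86 ± 0.215 with an adjusted p of 0.0577, just short of the test, and HFD minus chow was -0.54 ± 0.215 (adjusted p 0.170). The first passed in 4 of the alternatives: at -0.86 (adjusted p 0.0449) with all 18 arrays, -1.03 (0.0113) after quantile normalisation, -1.0 (0.0172) after cyclic loess and -0.95 (0.03) with the 3' to 5' index as a covariate.

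In the prevention model Scarb1 read 9.76, 10.26 and 10.41 in CMPF livers, 10.14, 10.17 and 10.24 in HFD livers, and 10.07, 9.28 and 9.96 in chow livers. The 3 HFD arrays were above the 3 chow arrays, as in 12% of all genes, at a difference of 0.42 ± 0.215 (adjusted p 0.246). The HFD effect of the reversal model minus that of the prevention model was -0.95 ± 0.304 (adjusted p 0.0568), and it was -1.29 (0.0244) after quantile normalisation. The Scarb1 probe sets were not alike in size: for CMPF with HFD minus chow in the reversal model, 1437378_x_at gave -0.66 ± 0.236 and 1416050_a_at gave -0.30 ± 0.248. At both of these probe sets the reversal chow arrays overlapped the HFD and the CMPF arrays, unlike at the main one.

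Apoa4 codes for a lipid-binding apolipoprotein of intestine and mouse liver that is carried on chylomicrons and HDL. It had the largest difference between CMPF and vehicle among the main probe sets of the 10 genes in the reversal model, where it read 11.46, 11.67 and 12.03 in CMPF livers, 12.18, 12.65 and 13.33 in HFD livers, and 12.83, 12.85 and 12.27 in chow livers. Every CMPF array was below every HFD and every chow array. CMPF minus vehicle was -1.0 ± 0.362 (95% interval -1.78 to -0.22), or 0.5 times the vehicle level, with an unadjusted p of 0.0152 and an adjusted p of 0.813. It did not pass, and 5.03% of all genes had CMPF arrays entirely below the HFD arrays, and 7.67% entirely below the chow arrays. The second Apoa4 probe set gave -1.32 ± 0.5, with CMPF and HFD arrays not overlapping, and followed the main one at a Pearson's r of 0.92 and a Spearman's rho of 0.91. CMPF and chow did overlap at that probe set, with CMPF array 3 at 10.98 and chow array 3 at 10.87.

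In the prevention model the Apoa4 groups overlapped, at 11.32, 12.13 and 12.16 in CMPF livers, 12.73, 12.52 and 11.52 in HFD livers, and 11.14, 12.06 and 11.52 in chow livers. CMPF minus vehicle was -0.52 ± 0.404 and HFD minus chow was 0.68 ± 0.362 (adjusted p 0.260), which was 0.24 at the second probe set. Of 9 enterocyte markers, 3 had a probe set above the filter. Their summed linear signal was 1917 to 2779 in reversal CMPF livers and 2777 to 3252 in reversal HFD livers, a ratio of 0.79 with an exact permutation p of 0.2, two-sided, and their part in the Apoa4 values was not tested.

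Apoa5 codes for the liver-made apolipoprotein A-V. In the reversal model it read 13.31, 13.30 and 13.02 in CMPF livers, 13.01, 13.08 and 12.58 in HFD livers, and 13.23, 13.12 and 13.18 in chow livers. All HFD arrays were below all chow arrays, as in 8.59% of all genes, and CMPF array 3 lay among the HFD arrays. CMPF minus vehicle was 0.31 ± 0.126 (unadjusted p 0.0258, adjusted p 0.912) and HFD minus chow was -0.28 ± 0.126 (adjusted p 0.207). In the prevention model the values were 13.01 to 13.06 in CMPF livers, 12.86 to 13.09 in HFD livers and 13.03 to 13.08 in chow livers, and CMPF minus vehicle was 0.05 (95% interval -0.25 to 0.35).

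Apoc2, whose product activates lipoprotein lipase, and Apoc3, whose product inhibits it, passed in no comparison. Apoc2 read 11.24 to 11.60 in prevention CMPF livers, 11.38 to 11.59 in HFD livers and 11.16 to 11.43 in chow livers. In the reversal model it read 12.14, 11.83 and 11.77 in CMPF livers, 11.96, 12.04 and 12.43 in HFD livers, and 12.01, 12.02 and 11.78 in chow livers, with a CMPF minus vehicle difference of -0.23 (95% interval -0.55 to 0.09). The groups overlapped in both models. Apoc3 read 13.80, 13.74 and 13.74 in prevention CMPF livers, 13.69, 13.66 and 13.66 in HFD livers, and 13.81, 13.68 and 13.77 in chow livers. The CMPF arrays were above the HFD arrays by 0.10 (95% interval -0.11 to 0.31), and 19.7% of all genes had CMPF samples entirely above the HFD samples. The reversal groups of Apoc3 overlapped, at 13.98 to 14.09 in CMPF livers, 14.03 to 14.10 in HFD livers and 13.89 to 14.14 in chow livers.

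Apoe codes for the ligand that returns remnants to the liver, and it was among the steadiest of the 10 genes. It read 13.85, 13.92 and 13.95 in prevention CMPF livers, 13.96, 13.99 and 13.87 in HFD livers, and 13.92, 13.91 and 13.99 in chow livers, and the groups overlapped. HFD minus chow was 0.00 (95% interval -0.19 to 0.19) and CMPF minus vehicle was -0.05 (-0.27 to 0.17). In the reversal model it read 14.06, 13.97 and 14.11 in CMPF livers, 14.17, 14.00 and 14.09 in HFD livers, and 13.99, 13.77 and 13.97 in chow livers. The HFD arrays were all above the chow arrays, as in 14.7% of all genes, by 0.18 ± 0.0908 (adjusted p 0.257); the difference was 0.11 without chow array 2, the one that stood apart, and -0.03 after cyclic loess within each model.

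**Figure D4:**
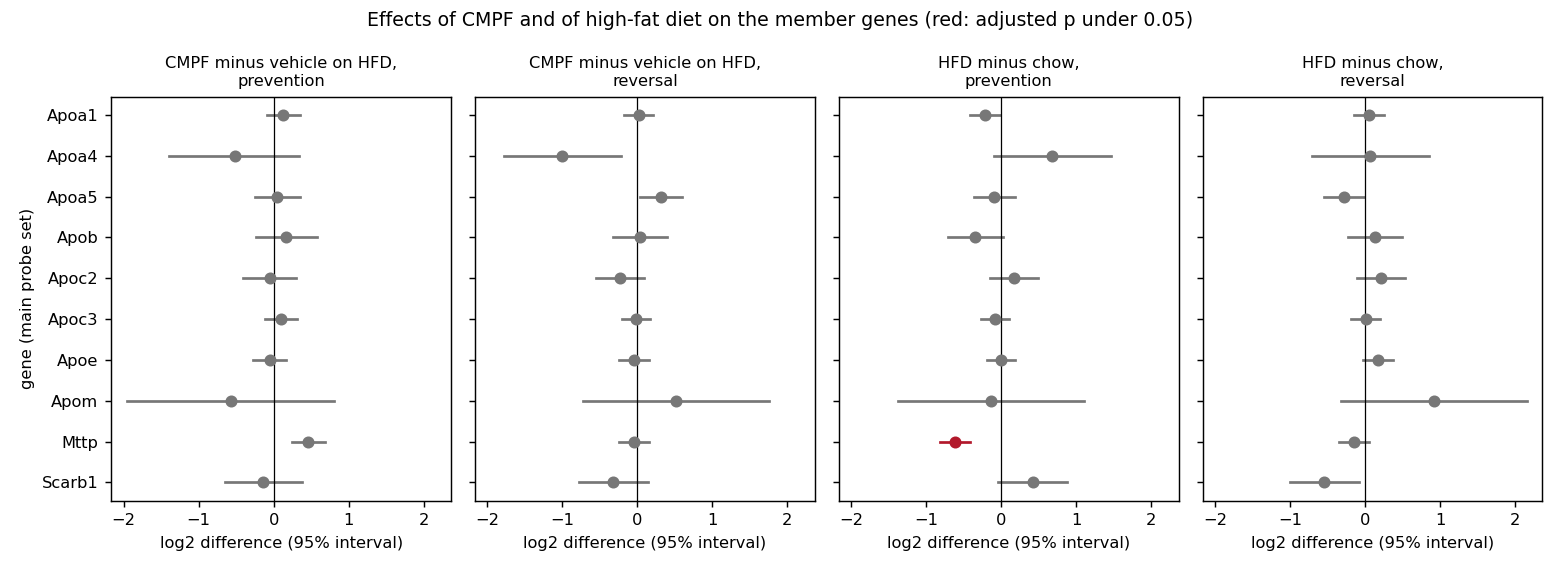
Log2 difference with its 95% interval for the main probe set of each gene, for CMPF minus vehicle and HFD minus chow in each model. Mttp in the prevention model, at -0.61, is the 1 value with an adjusted p under 0.05 (red).

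Other genes of lipoprotein metabolism were counted from 6 lists of related function. Their calls stand beside the background: 5.57% of all genes passed for HFD minus chow in the prevention model, 2.45% in the reversal model and 11% for the difference of HFD effects between models, of which 80.5% were higher in the reversal model, or 56% after quantile normalisation and 62.8% after cyclic loess. With the 3' to 5' index as a covariate, 17 of all genes were called for the prevention diet effect, against 737 without it, and 0 for the difference between models, against 1452. Of the other apolipoproteins and their relatives, 12 of 12 were tested and 0 passed for HFD against chow in either model, with a list median of -0.07 in the prevention and 0.16 in the reversal model. The smallest p-values were those of Apon at -0.58 (adjusted p 0.061) in the prevention model and of Apool, a mitochondrial protein, at 0.84 (adjusted p 0.169) in the reversal model. For the difference between models 3 of the 12 passed, each with the higher HFD effect in the reversal model: Apool by 1.87 ± 0.471, Apon by 0.90 ± 0.242, and Apof, a lipid transfer inhibitor, by 0.91 ± 0.27. Apof fell short of the test in each model alone, at -0.46 ± 0.191 and 0.45 ± 0.191.

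Of 19 genes of VLDL assembly and secretion, 17 were tested. Aadac, a lipase of the endoplasmic reticulum, fell by 0.68 ± 0.157 on prevention HFD (adjusted p 0.0297), and none passed on reversal HFD, where Sort1, a sorting receptor that binds apolipoprotein B, had the smallest p at 0.89 ± 0.225 (adjusted p 0.0525). The list median was -0.27 in the prevention and 0.43 in the reversal model, and 5 of the 17 passed the test for a higher HFD effect in the reversal model. Among them were Sort1 at 1.41 ± 0.318, Sar1b, the GTPase of the vesicles that carry lipoproteins out of the endoplasmic reticulum, at 1.26 ± 0.316, Aadac at 0.98 ± 0.223, and Pdia3, a disulfide isomerase of the endoplasmic reticulum, at 2.66 (adjusted p 0.0355).

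Of 13 genes of lipoprotein uptake, 9 were tested. On prevention HFD 3 rose: Cd36, a fatty acid and lipoprotein scavenger receptor, by 2.25 ± 0.512, Vldlr, the VLDL receptor, by 1.83 ± 0.488, and Lrpap1, a chaperone of these receptors, by 0.54 ± 0.148. On reversal HFD Cd36 rose, by 3.22 ± 0.512 (adjusted p 0.00752). With CMPF against vehicle in the reversal model Cd36 was at 7.21 in CMPF and 9.66 in HFD livers, a difference of -2.44 ± 0.512 that did not pass (adjusted p 0.17).

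Of 15 genes that remodel lipoproteins in plasma, 13 were tested. Saa4, an HDL apolipoprotein of the serum amyloid family, rose on HFD in both models, by 0.71 ± 0.182 and 1.06 ± 0.182, and it was higher by 1.21 ± 0.182 in reversal CMPF livers than in chow livers (adjusted p 0.00517). On prevention HFD Angptl6 rose by 0.44 ± 0.101 and Pon3, an HDL-bound paraoxonase, fell by 1.29 ± 0.236. On reversal HFD Lpl, lipoprotein lipase itself, fell by 1.98 ± 0.434 and Lmf1, which matures it, rose by 0.57 ± 0.125. Lpl was also lower in reversal CMPF livers than in chow livers, by 2.32 ± 0.434 on the log2 scale (adjusted p 0.0161). For the difference between models 2 of the 13 passed: Pon3, with the HFD effect higher in the reversal model by 1.70 (adjusted p 0.0183), and Angptl6, at -0.63 (adjusted p 0.0256). The sum of exocrine pancreas markers, of which 4 of 5 were above the filter, and that of macrophage markers, 10 of 10, moved with the reversal HFD group: 1038 to 1384 in HFD and 226 to 773 in chow livers for the pancreas, and 3224 to 4509 in HFD and 2131 to 3145 in chow livers for macrophages. The exact permutation p of HFD against chow was 0.1 for both, the smallest possible. In reversal CMPF livers the sums were 830 to 1696 for the pancreas and 2887 to 4325 for macrophages. Against chow these had an exact permutation p of 0.1 and 0.2. The part of these markers in the genes above was not tested.

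Of 10 genes of cellular cholesterol export and storage, 8 were tested, and on prevention HFD Npc2 rose by 0.72 ± 0.155 and Npc1 fell by 1.02 ± 0.19; both code for proteins that release cholesterol from lysosomes. None passed on reversal HFD, where Abcg5, a half-transporter of sterols into bile, had the smallest p at -0.40 (adjusted p 0.189). For the difference between models 2 of the 8 passed, Npc1 at 1.09 (adjusted p 0.0281) and Abca5 at 1.11 (0.0355). Of 26 transcriptional regulators of apolipoprotein genes, 22 were tested. Rora, a nuclear receptor, fell by 0.60 ± 0.125 on prevention HFD, and on reversal HFD Pparg rose by 1.72 ± 0.176 and Nr1h3, the liver X receptor alpha, by 0.61 ± 0.126. Pparg was also higher in reversal CMPF livers than in chow livers, by 0.78 ± 0.176. In the difference between models 2 of the 22 passed, Pparg at 1.09 (adjusted p 0.0256) and Rxra at 0.58 (0.0365). Rxra codes for a partner shared by the products of Pparg and Nr1h3. For CMPF against vehicle 0 genes of the 6 lists passed in either model. The smallest p-values there belonged in the prevention model to Nr0b2 (1.45 ± 0.322, unadjusted p 0.000498), a nuclear receptor without a DNA-binding domain, and Angptl8 (2.09 ± 0.532, unadjusted p 0.00153), and in the reversal model to Pparg (-0.94 ± 0.176, adjusted p 0.0992).

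**Figure D5:**
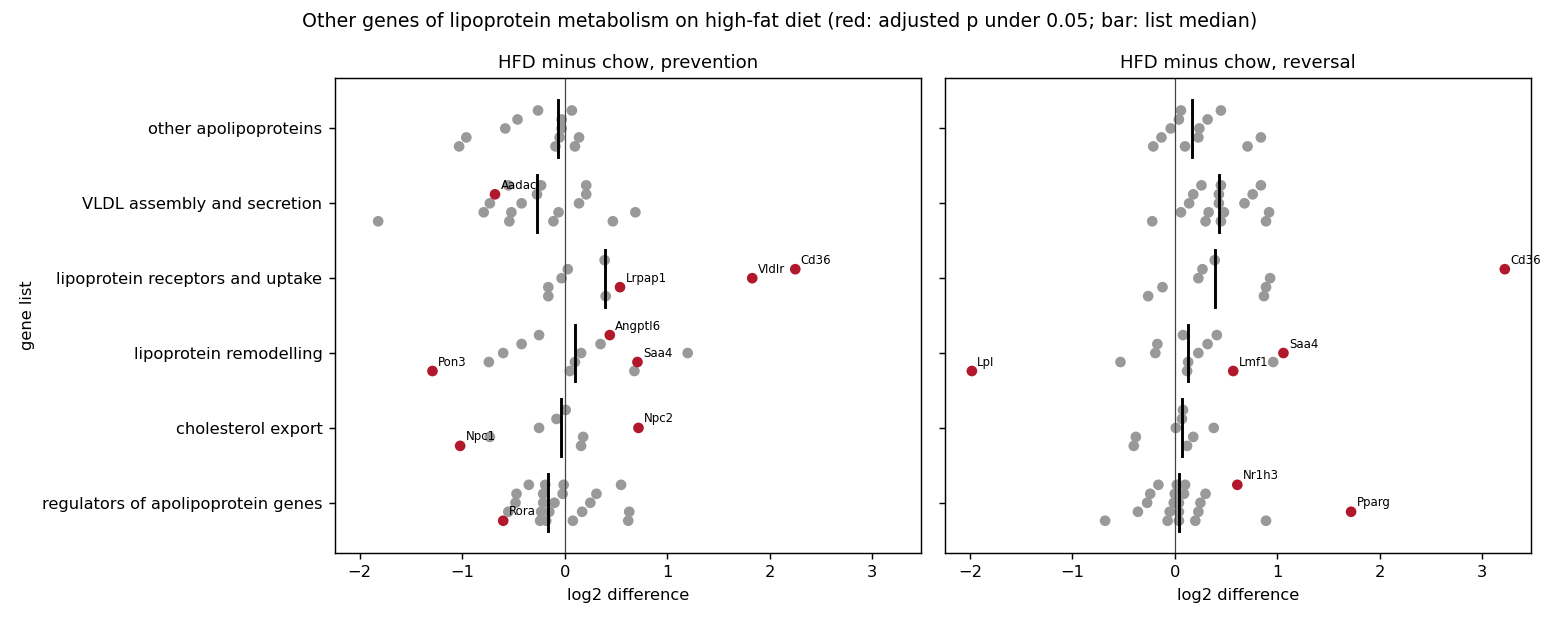
HFD minus chow log2 difference of each tested gene of the 6 lists, in the prevention (left) and reversal (right) model, with the list median as a bar and genes past the test named in red. Cd36 lies furthest right in both panels, at 2.25 and 3.22, and Lpl furthest left in the reversal panel, at -1.98.

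The genes whose pattern over the 17 samples was most like that of Mttp, with model means removed, were Ephx2, soluble epoxide hydrolase (Pearson's r = 0.909, Spearman's rho = 0.902), Eva1a (0.892 and 0.885) and Elovl2, an elongase of polyunsaturated fatty acids (0.879 and 0.863). They were picked as the 3 highest of all tested genes apart from predicted ones, and the samples share their groups and arrays, so these values describe the ranking. On prevention HFD Ephx2 fell by 0.64 ± 0.111 and Elovl2 by 1.39 ± 0.182. With CMPF against vehicle in the prevention model Elovl2 was at 11.21 ± 0.241 in CMPF livers (n = 2) and 10.28 ± 0.24 in HFD livers (n = 3), a difference of 0.93 ± 0.203 that did not pass (adjusted p 0.252).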

How the data were processed

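Per the labels' protocols, total RNA came from a Qiagen RNeasy Plus Mini kit, and 200 ng of it gave the biotin-labelled cRNA. The authors deposited log2 values, made with Affymetrix Expression Console 1.1 and RMA per the submitters' processing notes. Of 45101 probe sets, 64 were controls, 34945 had 1 symbol in the platform annotation, 932 had several and 9160 were not listed. The dimmest 40% of probe sets, by mean signal, were left out. Of the single-symbol probe sets of a gene the brightest stood for it. limma 3.58.1 in R 4.3.3 fitted 6 group means to 17 samples (11 residual and 3.02 prior degrees of freedom, eBayes), with Benjamini-Hochberg adjustment over 13228 genes, or 22640 probe sets for single probe sets, and a threshold of 0.05. The procedure was tested on simulated data.

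The number of arrays limits the precision. Alternatives covered the replicate block, normalisation, filter, probe set choice, RNA index, samples in the fit and leaving out each sample. In the lists, genes past the threshold were named, at most 4 by smallest p, or else the 1 with the smallest p. The members and lists were chosen with earlier results of these data known. The genes not tested in a list are not reported here.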

Additional observations from a re-analysis of the deposited data

Results flagged for a closer look

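The effect of the high-fat diet on Mttp passed a test of the difference between the models, but not under every processing: HFD minus chow was 0.47 higher in the reversal model than in the prevention model (limma, adjusted p 0.0378), 0.14 (adjusted p 0.527) after quantile normalisation, 0.16 (0.422) after cyclic loess and 0.50 (0.252) with the 3' to 5' index as a covariate. The HFD arrays were lower than the chow arrays in 3 of 3 prevention samples and overlapped them in the reversal model. The second Mttp probe set gave 0.79 with an adjusted p of 0.0695.

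The effect on the Apom probe set 1419096_at differed in the same direction, by 1.4 (adjusted p 0.0237), while the main Apom probe set gave 1.05 (adjusted p 0.387). At 1419096_at the call was lost with the index as a covariate (1.2, adjusted p 0.256) and in 4 of the fits that left out an array (adjusted p 0.055 to 0.0696). The models also differed in how long the diet lasted and in the order of diet and injections, and their array values lay at separate levels.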

How the results depend on the processing

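No value of the 10 genes or of their probe sets that passed the test changed direction in any alternative: of 1410 alternative values of the genes, 1384 stayed on the same side of the threshold, 16 fell below it and 10 rose past it. All 16 that fell below it belonged to Mttp, with 17 alternatives for prevention HFD minus chow and 21 for the difference of HFD effects. Nearly all the others had not passed in the main fit, and 93 gene values not called changed sign. Leaving out 1 sample at a time gave 0 to 1 genes and 0 to 3 probe sets called for HFD minus chow in the prevention model, 0 to 1 genes and 0 to 2 probe sets for the difference of HFD effects between models, and 0 to 1 genes (Apom, without chow array 3) for CMPF on HFD minus chow in the reversal model. The Mttp difference between models kept its call when chow array 2 of the prevention model or chow array 1 or 3 of the reversal model was left out, and its adjusted p was 0.0517 to 0.0946 without any one of the other HFD or chow arrays. Counting all 18 arrays called 1 gene for CMPF minus vehicle in the prevention model (Mttp), with 1 probe set, 1 gene for CMPF on HFD minus chow in the reversal model (Scarb1), 1 probe set for the same comparison in the prevention model (Apom), and 2 genes for the difference of HFD effects (Mttp, and Scarb1 at -0.95, adjusted p 0.0485). Quantile normalisation called 1 gene for HFD minus chow (Scarb1, -0.74, adjusted p 0.0483) and 1 gene with 2 probe sets for CMPF on HFD minus chow in the reversal model, and cyclic loess called 1 gene and 1 probe set for the second. With the 3' to 5' index as a covariate, 0 genes and 0 probe sets were called for HFD minus chow in the prevention model and for the difference of HFD effects, and 1 gene and 1 probe set for CMPF on HFD minus chow in the reversal model; fewer residual degrees of freedom are part of that fit, and the index did not overlap between prevention HFD and chow. Over all genes the 737 called for HFD minus chow in the prevention model were 8 to 1624 with 1 sample left out and 17 to 1151 in the other alternatives, the 324 of the reversal model were 99 to 577 and 0 to 475, the 265 for CMPF on HFD minus chow in the reversal model were 73 to 264 and 8 to 385, the 5 for CMPF minus vehicle in the reversal model were 0 to 6 and 0 to 17, and the 1452 for the difference of HFD effects were 0 to 2400 and 0 to 1826. With the replicate block, Mttp was at -0.61 (adjusted p 0.00991) and 0.47 for the difference between models (adjusted p 0.0454). All-gene calls for the prevention diet effect were 875 in that fit, and no call of the 10 genes changed. Same-numbered HFD and chow arrays deviated from their group means with correlations from -0.18 to 0.44 in the prevention model. The range was -0.09 to 0.34 in the reversal model. Whether the labels' replicate numbers pair the samples cannot be decided from so few arrays. Signals near the top of the scale, as for Apoa1, Apoc3 and Apoe, limit what an increase could show.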
